A study of Mus musculus with 12 samples.

Results

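The proteasome genes followed here were the 48 rows of the count table, out of 14323, whose symbol begins with Psma, Psmb, Psmc, Psmd, Psme, Psmf or Psmg followed by a digit. Splenocytes of 3 wild type mice had been sorted for naïve CD8+ T cells, with a gate on TCRβ, CD8 and CD62L as positive and CD44 as negative, and these were cultured for 6 h at 100000 cells per well in 4 conditions. The wells were coated with 2.5 µg/ml of anti-CD3ε (clone 145-2C11, which triggers the T cell receptor complex) or left with isotype antibody in its place, and each of these with 2.5 µg/ml of anti-LAIR-1 (clone 2C7) or of isotype control. LAIR-1 is an inhibitory collagen receptor of leukocytes. The conditions were thus unstimulated with isotype, unstimulated with anti-LAIR-1, anti-CD3 with isotype and anti-CD3 with anti-LAIR-1, with 1 library per mouse and condition, 12 in all. The study's methods describe its mice as adults on the C57BL/6N background. The labels name no anti-CD28 or added cytokine.

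The proteasome degrades proteins tagged with ubiquitin. Its 20S core is a barrel of alpha and beta rings, in which Psmb5, Psmb6 and Psmb7 carry the proteolytic sites, and the 19S regulatory particle of ATPases (Psmc) and non-ATPase subunits (Psmd) caps the barrel, recognises ubiquitin and unfolds the substrate. In cells exposed to interferon-γ and in lymphocytes, the catalytic subunits can be replaced by Psmb8, Psmb9 and Psmb10, which form the immunoproteasome and favour peptides that fit MHC class I, and the PA28 activator of Psme1 and Psme2 can bind the core. T cells that leave the resting state increase the synthesis and the turnover of protein.

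The members comprised 7 alpha subunits, 4 non-catalytic beta subunits, 3 standard catalytic and 3 immunoproteasome catalytic subunits, 6 ATPases and 11 non-ATPases of the 19S particle, 3 chaperones of 19S assembly (Psmd5, Psmd9, Psmd10), 4 chaperones of core assembly (Psmg1 to Psmg4), the PA28 pair, and 3 other regulators (Psme3, Psme4, Psmf1). Psmb11, the thymus-specific catalytic subunit, had 0 to 2 counts per library and was tested in no comparison. Psmc3ip, which the symbol rule takes in, encodes a factor of homologous recombination and not a proteasome subunit. It had 3 to 33 counts per library and was too low to be tested between the unstimulated groups. So 47 of the 48 members were tested in all other comparisons and 46 in that one. The 5 genes of the immunoproteasome set (Psmb8, Psmb9, Psmb10, Psme1 and Psme2) were tested in each comparison.

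Library totals ranged from 1781218 to 7725545 counts, and 3 counts corresponded to 0.405 to 1.62 CPM (CPM, the share of a library's counts scaled by TMM normalization, is the unit of all levels given here). Of 12 markers of CD8+ T cells, 11 were in the table and their summed level was 6813 to 7539 CPM in unstimulated isotype libraries and 2514 to 2709.6 CPM with anti-CD3 and isotype. All 7 genes of an activation list (Cd69, Il2ra, Nr4a1, Egr1, Myc, Ifng and Gzmb) rose with anti-CD3. Summed markers of CD4+ T cells reached at most 4.85 CPM, of NK cells 1.27 CPM and of erythroid cells 0.408 CPM. Chi-square per gene between the counts of libraries of the same condition was 3.81 to 5.62, where copies of a library would give about 1, and so none was counted as a copy. Adjusted p-values are from the quasi-likelihood test of edgeR (adjusted by Benjamini-Hochberg over the genes tested, threshold 0.05) unless another tool is named.

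All 48 symbols were found in the GENCODE M21 annotation of GRCm38 as protein-coding genes, spread over 16 chromosomes. Psmb8 (chr17:34197721-34201454, plus strand) and Psmb9 (chr17:34181987-34187764, minus strand) lie 9956 bases apart in the MHC class II region of chromosome 17, on either side of the peptide transporter gene Tap1, with Tap2 starting 2072 bases beyond Psmb8. The annotated 5′ ends of Psmb9 and Tap1 overlap by 212 bases on opposite strands. Psmb10 (chr8:105935735-105938444, minus strand) lies outside the MHC. Psme1 and Psme2 are neighbours on chromosome 14, with 5911 bases between them. The standard catalytic genes lie apart, Psmb5 at chr14:54614119-54618022 (minus strand), Psmb6 at chr11:70525367-70527858 (plus strand) and Psmb7 at chr2:38588036-38644087 (minus strand).

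The bases before the RefSeq start of catalytic genes that changed in opposite directions are shown because standard genes are known targets of Nfe2l1, which binds antioxidant response elements, and immunoproteasome genes of factors induced by interferon-γ, such as Irf1. The sequences are from RefSeq (GRCm38.p6), written 5′ to 3′ on the gene's strand, and leave out the bases that GENCODE assigns to an exon. Capitals mark a match to TGACNNNGC (the core of the antioxidant response element) in Psmb5 and Psmb6 and to TTCNNNGAA (the pattern of a gamma activated sequence) in Psmb8. The whole window of Psmb8 lies in an exon of a longer GENCODE transcript, so that only 30 bases around the match are given. Psmb7 has no entry in the promoter table used, and the window of Psmb9 lies in the untranslated region of a longer transcript, so neither is shown.
Psmb5 chr14:54618023-54618245 (minus strand): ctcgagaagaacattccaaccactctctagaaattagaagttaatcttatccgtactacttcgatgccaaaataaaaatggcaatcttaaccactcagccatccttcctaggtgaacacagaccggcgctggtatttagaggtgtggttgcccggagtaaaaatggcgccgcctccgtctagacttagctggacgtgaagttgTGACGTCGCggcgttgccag
Psmb6 chr11:70525107-70525356 (plus strand): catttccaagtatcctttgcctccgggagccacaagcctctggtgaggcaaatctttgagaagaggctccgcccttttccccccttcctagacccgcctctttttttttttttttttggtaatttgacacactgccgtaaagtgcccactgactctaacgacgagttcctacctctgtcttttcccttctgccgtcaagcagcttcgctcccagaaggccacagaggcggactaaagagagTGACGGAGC
Psmb8 chr17:34198088-34198117 (plus strand): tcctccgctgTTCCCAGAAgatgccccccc
Psmb10 chr8:105938445-105938642 (minus strand): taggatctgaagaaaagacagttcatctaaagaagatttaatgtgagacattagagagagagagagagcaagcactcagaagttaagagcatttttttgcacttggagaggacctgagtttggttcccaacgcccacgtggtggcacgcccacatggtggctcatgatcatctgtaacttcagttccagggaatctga
The 250 bases before the start were searched on both strands in the 41 members with an entry, and a match is a description of letters and not of a bound site. The share of members counts genes with a match in any of their entries. That of all promoters counts single entries, so that the shares differ in unit. TGACNNNGC was present in 5 members (Psmb5, Psmb6, Psmc6, Psmd12 and Psmd9), or 12.2%, against 10.2% of all 32851 promoters. TTCNNNGAA was present in 2 (Psmb8 and Psmg1), or 4.88%, against 7.02%. The element of interferon regulatory factors (GAAA, any 2 bases and GAAA again) was present in 3 (Psmb3, Psmd4 and Psmd9), or 7.32%, against 2.98%. Of the 5 genes of the immunoproteasome set, 0 had this pattern or TGACNNNGC in the window and 1 had TTCNNNGAA.

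The first question was how stimulation through CD3 changes proteasome genes in naïve cells. With isotype, anti-CD3 was followed after 6 h by higher levels of nearly the whole standard proteasome. The median was 2.49-fold over the 42 members tested outside the immunoproteasome set, and 2.35-fold over all 47 members tested. The 3 immunoproteasome catalytic subunits fell to between 0.301 and 0.431 of the unstimulated level. Psme3, the PA28γ activator of the nuclear proteasome, rose most, 5.17-fold. Psme1 and Psme2, the other genes of the immunoproteasome set, rose by 1.43-fold and 1.95-fold. Of the 47 members tested, 44 passed (71.3% of all 8690 genes tested did). Of these, 41 rose, where 35.3% of all genes did, and 3 fell (Psmb8, Psmb9 and Psmb10), where 36.1% did. The remaining 3 (Psme4, Psmd10 and Psmf1) did not pass the test. The median log2 fold change was 1.23 over the members and -0.03 over all genes tested, and each of the 47 moved the same way in all 3 mice. In 43 of the 48 members every stimulated library lay above every unstimulated one, as in 37.7% of all genes tested, in 3 every one lay below, as in 35.8%, and Psmb11 and Psmf1 overlapped. Summed over the members, the level was 3955 to 4428 CPM without and 10154 to 10518 CPM with anti-CD3. These values are shares of the RNA of a well, so that fewer cells of a kind and less RNA per cell cannot be told apart. The p-values weigh a change against the spread between the 3 libraries of a condition, 1 per mouse. Unless the mouse is named as a block, they do not use that the same mice gave both groups.

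**Figure D1:**
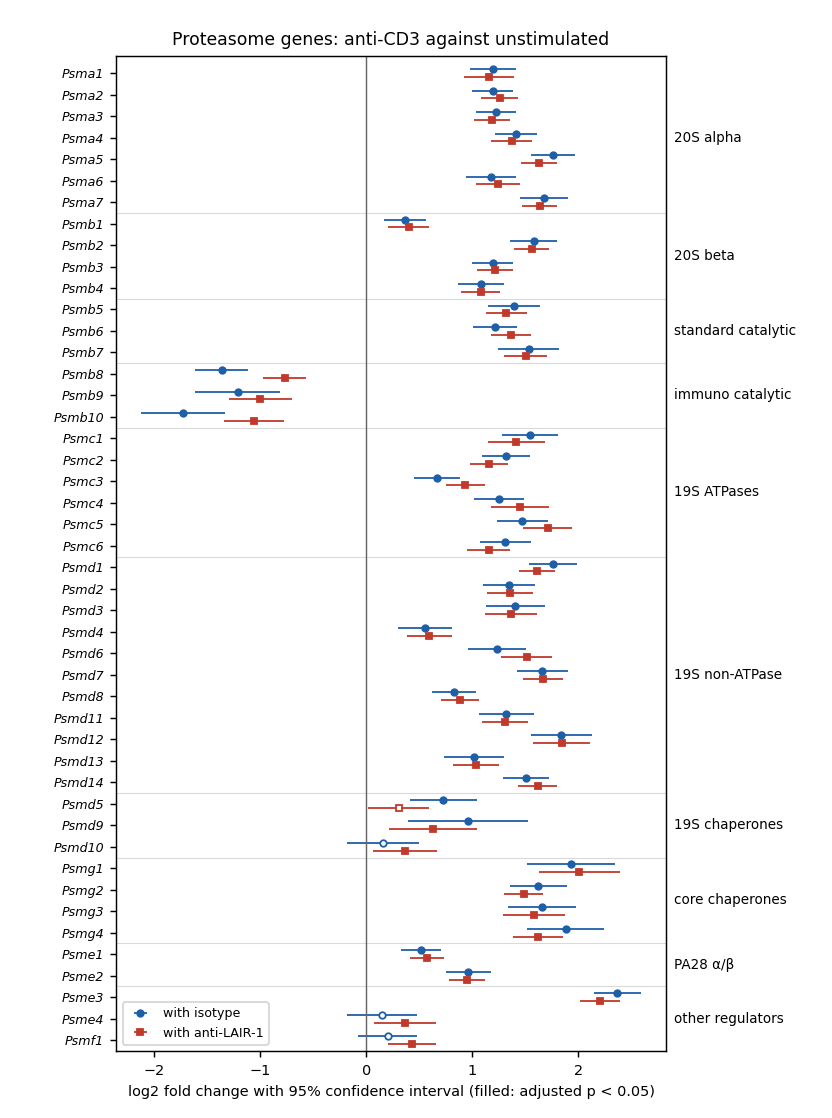
Log2 fold change (x axis) of 46 proteasome genes (rows, by role) with anti-CD3 against unstimulated cells, with isotype (circles) or anti-LAIR-1 (squares), n = 3 libraries per group. Bars are 95% confidence intervals and filled symbols have an adjusted p under 0.05. Psmb8, Psmb9 and Psmb10 lie left of 0 in both comparisons, and all other rows lie to the right.

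The alpha ring of the core, which gates entry to the barrel, rose as a whole. All 7 genes passed, with a median of 2.34-fold and log2 fold changes between 1.18 and 1.77. The level of Psma5, with the highest fold change of them, was 114, 104 and 127 CPM in the unstimulated isotype libraries of mice 1, 2 and 3 and 403, 407 and 387 CPM with anti-CD3. Its log2 fold change was 1.77 ± 0.10 (SE, n = 3 per group, adjusted p = 1.81e-13 in edgeR). The 4 non-catalytic beta subunits rose as well, by 2.20-fold in the median. Psmb2 rose by 1.58 ± 0.11 on the log2 scale, and Psmb1 by 0.37 ± 0.10 (adjusted p = 0.00183 in edgeR), the smallest rise among core subunits. Psmb1 was at 222, 184 and 209.8 CPM without and 266, 266 and 282 CPM with anti-CD3, and the groups did not overlap.

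The standard catalytic subunits were each above 2-fold. Psmb5, the chymotrypsin-like subunit, was at 58.9, 56.7 and 54.5 CPM in unstimulated and 158, 136 and 165 CPM in stimulated isotype libraries (log2 fold change 1.39 ± 0.12, adjusted p = 3.10e-10 in edgeR). Psmb6, the caspase-like subunit, was at 99.3, 98.0 and 89.5 CPM and then 229, 231 and 225 CPM (1.21 ± 0.10). Psmb7, the trypsin-like subunit, was at 48.7, 56.3 and 71.2 CPM and then 175, 196 and 145 CPM (1.53 ± 0.14). In each of the 3 genes the stimulated libraries were all above the unstimulated ones, and mouse 3 had the smallest difference in Psmb7. The 3′ end of Psmb7 is overlapped on the opposite strand by Nek6, and whether the counting used strand is not given in the sources used here.

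The immunoproteasome counterparts went the other way. Psmb8, which takes the place of Psmb5, was at 164, 162 and 149 CPM in unstimulated isotype libraries and 57.1, 57.0 and 74.1 CPM with anti-CD3. Psmb9, the counterpart of Psmb6, was at 31.1, 31.0 and 31.8 CPM and then 12.7, 12.5 and 15.8 CPM. Psmb10, the counterpart of Psmb7, was at 44.3, 42.9 and 50.1 CPM and then 17.2, 10.6 and 14.8 CPM. All 3 stimulated libraries lay below all 3 unstimulated ones in each gene, and mouse 3 kept the highest stimulated level of Psmb8 and Psmb9. The log2 fold change was -1.36 ± 0.12 for Psmb8 (adjusted p = 5.61e-10), -1.21 ± 0.19 for Psmb9 (adjusted p = 6.27e-06) and -1.73 ± 0.19 for Psmb10 (adjusted p = 2.27e-08, all in edgeR). These calls held in each of 9 other settings and with each of the 6 libraries left out. The summed level of the 3 genes was 231 to 239.9 CPM without and 80.1 to 105 CPM with anti-CD3, while that of the 3 standard catalytic genes was 207 to 215 and 534 to 563 CPM. Psmb8 and Psmb10 each have an annotated gene on the opposite strand over their 3′ end (Gm20496 and Gm16156, no rows of this table), so that reads from either strand could count toward them if strand was not used.

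**Figure D2:**
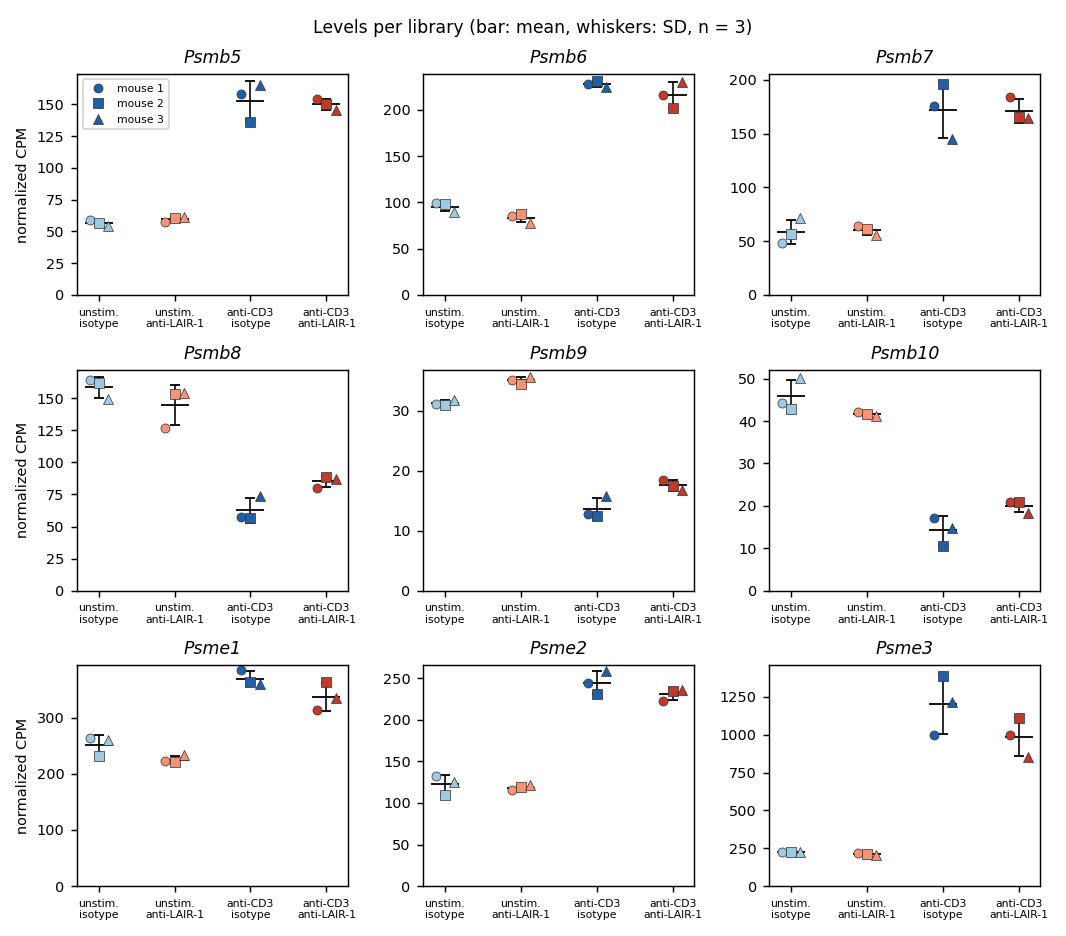
Level in CPM (y axis, from 0) of 9 proteasome genes in the 12 libraries by condition (x axis), with the mouse as the symbol, the mean as a bar and the SD as whiskers (n = 3). Psmb5, Psmb6, Psmb7, Psme1, Psme2 and Psme3 are higher in every stimulated than in every unstimulated library, and Psmb8, Psmb9 and Psmb10 are lower.

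Markers of other immune cells, which carry immunoproteasomes too, also moved with stimulation. Of 7 B cell markers, 4 were in the table, with a summed level of 5.96 to 9.71 CPM without and 1.91 to 4.23 CPM with anti-CD3 and isotype (Pax5, Ighm and Ighd are no rows of the table). Of 9 myeloid markers, 6 were in the table, with 48.5 to 63.9 and 28.7 to 40.2 CPM (Lyz2, S100a8 and S100a9 are no rows of it), nearly all of it Cst3. The part of these cells in the fall of Psmb8, Psmb9 and Psmb10 was not tested. The summed CD8+ T cell markers, given above, were lower with anti-CD3 as well, and their part was not tested either.

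Since counting at the 3′ end does not allow levels of different genes to be compared, the change of a ratio between conditions was used to set standard against immunoproteasome subunits within a library. With isotype, anti-CD3 changed the log2 ratio of Psmb8 to Psmb5 by -2.77 on average (-2.95, -2.77 and -2.61 in mice 1, 2 and 3). The ratio of Psmb9 to Psmb6 changed by -2.46 (-2.50, -2.55 and -2.34) and that of Psmb10 to Psmb7 by -3.27 (-3.21, -3.82 and -2.79). All 3 pairs thus moved toward the standard subunit in all 3 mice, with no overlap between the groups. The activators also moved away from the PA28 pair, the log2 ratio of Psme1 to Psme3 changing by -1.84 and that of Psme2 to Psme3 by -1.39. The ratios are descriptions and were given no test.

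**Figure D3:**
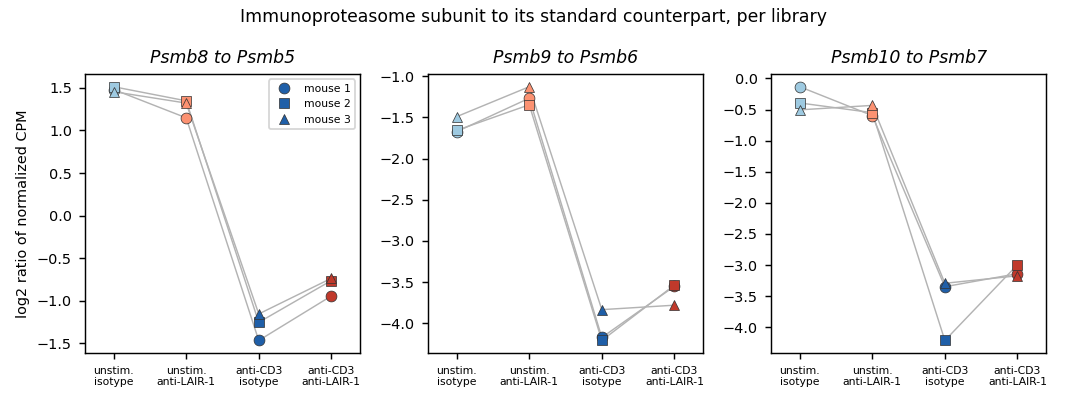
Log2 ratio of the CPM of an immunoproteasome subunit to that of its standard counterpart (y axis) in each library by condition (x axis), with lines joining the libraries of a mouse. Each pair drops with anti-CD3 in all 3 mice, and in stimulated cells each ratio is higher with anti-LAIR-1 than with isotype in all 3 mice.

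The 19S particle rose with the core. All 6 ATPases, which unfold and feed the substrate, passed, with a median of 2.49-fold, and so did all 11 non-ATPase subunits, with 2.54-fold. Psmd12, a scaffold subunit of the lid, was at 24.8, 20.8 and 26.4 CPM without and 88.0, 86.0 and 89.6 CPM with anti-CD3 (log2 fold change 1.84 ± 0.14, adjusted p = 4.25e-11 in edgeR). Psmd1, a large base subunit that docks ubiquitin receptors, rose by 1.76 ± 0.11 on the log2 scale, and Psmd7, the partner of the deubiquitinase Psmd14, by 1.66 ± 0.12. The ATPases ranged from 0.67 to 1.55 and the non-ATPase subunits from 0.56 to 1.84 on the log2 scale. The smallest rises among them were those of Psmd4, a ubiquitin receptor, by 0.56 ± 0.12 (adjusted p = 3.14e-04), of the ATPase Psmc3 by 0.67 ± 0.10 and of Psmd8 by 0.83 ± 0.10 (edgeR). Psmd4 was at 61.2, 56.7 and 51.8 CPM without and 91.6, 86.3 and 80.6 CPM with anti-CD3, so that the groups were apart in this gene too. Psmc3 has Slc39a13 on the opposite strand at its 3′ end. Psmd1 has the annotated gene Gm21972, no row of this table, on the same strand there. Counting by strand would not tell their reads apart.

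Chaperones that build the core rose more than the subunits in the median, by 3.41-fold over 4 genes. Psmg1, which pairs with Psmg2 to start the alpha ring, was at 14.9, 8.16 and 14.0 CPM without and 52.6, 42.0 and 51.1 CPM with anti-CD3 (log2 fold change 1.93 ± 0.20, adjusted p = 1.02e-08 in edgeR). Psmg4, which pairs with Psmg3, was at 24.5, 23.3 and 40.4 CPM and then 112, 86.9 and 125 CPM (1.88 ± 0.18). Psmg2 and Psmg3 rose by 1.62 ± 0.13 and 1.66 ± 0.15. At its 3′ end Psmg3 has the annotated gene Gm26938, no row of this table, on the same strand, so that strand would not part their reads. The 19S chaperones rose less. Psmd5 rose by 0.73 ± 0.15 on the log2 scale (adjusted p = 1.95e-04) and Psmd9 by 0.96 ± 0.27 (adjusted p = 0.00333). With all libraries thinned to the smallest total, Psmd9 did not pass (0.58, adjusted p = 0.121 in edgeR), nor did it under anti-LAIR-1 (0.23, adjusted p = 0.491). Psmd10, known as gankyrin, was at 28.7 ± 0.932 CPM without and 32.9 ± 3.72 CPM with anti-CD3 (SD, n = 3 each, adjusted p = 0.407 in edgeR).

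The activators of the core differed widely. Psme3 was at 228, 226 and 228 CPM in unstimulated isotype libraries and 1001, 1392 and 1219.8 CPM with anti-CD3 (log2 fold change 2.37 ± 0.11, adjusted p = 2.51e-15 in edgeR). The unstimulated libraries lay close together, and the stimulated ones were all far above them and spread more widely. Psme1, the alpha subunit of PA28, was at 264, 231 and 260.4 CPM and then 385, 364 and 359.6 CPM (0.52 ± 0.09, adjusted p = 2.52e-05 in edgeR), and Psme2, the beta subunit, at 132, 109 and 126 CPM and then 244, 231 and 258 CPM (0.96 ± 0.10, adjusted p = 1.64e-08). Both were higher in every stimulated library. Psme1 has Emc9 on the opposite strand at its 3′ end. Psme4, the PA200 activator, was at 28.9 ± 2.16 CPM without and 33.1 ± 1.43 CPM with anti-CD3 (adjusted p = 0.418 in edgeR, 95% interval of the log2 fold change -0.19 to 0.48). Psmf1, which encodes the inhibitor PI31, was at 70.4 ± 12.5 and 82.6 ± 8.49 CPM (adjusted p = 0.185, interval -0.08 to 0.48). With upper quartile scaling, which moved the median of all genes by -0.18 on the log2 scale, Psmb1 no longer passed (0.19, adjusted p = 0.0843 in edgeR) and Psme4 was at -0.03. Psmc3ip rose by 1.06 ± 0.42 (adjusted p = 0.0289), and did not pass in DESeq2 (adjusted p = 0.121).

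Under anti-LAIR-1, anti-CD3 had the same shape of effect. Of the 47 members tested, 46 passed (72.7% of all 9000 genes tested did), of which 43 rose (36.4% of all genes did) and 3 fell (36.3%). The member that did not pass was Psmd5, named after its value was seen (0.30 ± 0.14, adjusted p = 0.0557 in edgeR). The genes that fell were again Psmb8, Psmb9 and Psmb10. The median log2 fold change was 1.26 over the members and -0.04 over all genes tested. This comparison and that with isotype share no library, but both come from the same 3 mice.

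With anti-LAIR-1, Psmb8 was at 127, 153 and 154 CPM without and 80.2, 88.4 and 87.3 CPM with anti-CD3 (-0.77 ± 0.10 on the log2 scale, adjusted p = 6.70e-07 in edgeR). Psmb10 was at 42.1, 41.7 and 41.2 CPM and then 20.9, 20.8 and 18.2 CPM (-1.06 ± 0.13, adjusted p = 8.70e-07). Psmb9 was at 35.2, 34.5 and 35.6 CPM and then 18.5, 17.4 and 16.7 CPM (-1.001 ± 0.14, adjusted p = 3.50e-06). The groups did not overlap in these genes. Beside the values with isotype given above, the log2 fold change was less negative for each of the 3, and the test of that difference is the interaction described further on. Psme3 rose by 2.21 ± 0.09, Psme2 by 0.95 ± 0.08, Psme1 by 0.57 ± 0.08, Psmg1 by 2.01 ± 0.18 and Psmg4 by 1.62 ± 0.11. Psmf1 (0.43 ± 0.11, adjusted p = 0.00145), Psme4 (0.36 ± 0.14, adjusted p = 0.0264) and Psmd10 (0.37 ± 0.14, adjusted p = 0.0294) passed here in edgeR and not with isotype, and the interaction passed for none of the 3 (adjusted p = 0.721, 0.791 and 0.808). Psme4 and Psmd10 did not pass in DESeq2 (adjusted p = 0.0523 and 0.0573), and with upper quartile scaling, which moved the median of all genes by -0.21, Psmf1, Psme4, Psmd10, Psmd9 and Psmb1 did not pass. Under anti-LAIR-1, Psmd9 rose by 0.63 ± 0.20 (adjusted p = 0.00773 in edgeR), and in DESeq2 with the mouse as a block its adjusted p was 0.0830. Psmd10 was at -0.07 after thinning.

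The second question was whether ligation of LAIR-1 changes proteasome genes in stimulated cells. Of the 47 members tested, 1 passed, against 5.76% of all 8800 genes. It rose with anti-LAIR-1, as 3.9% of all genes did, and 0 fell in edgeR, where 1.86% of all genes did. The gene that rose was Psmb8. At an unadjusted p under 0.05 there were 8 members, 2 higher and 6 lower, and DESeq2 called 1 member higher and 0 lower. The median log2 fold change was -0.06 over the members and 0.00 over all genes tested, with 38 of 47 below 0. All 3 immunoproteasome catalytic genes lay above 0, and the 42 members tested outside the immunoproteasome set ranged from -0.38 (Psmc3ip, with 17 to 33 counts per stimulated library) to 0.08. In Psmb8, Psmb9 and Psmb10 every library with anti-LAIR-1 lay above every library with isotype, as in 12.9% of all genes tested, and in 7 members every one lay below, as in 11.1%. These libraries with anti-CD3 and isotype are also the stimulated group of the first comparison, so that the values of the comparisons are not independent.

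Psmb8 was at 57.1, 57.0 and 74.1 CPM with anti-CD3 and isotype and at 80.2, 88.4 and 87.3 CPM with anti-CD3 and anti-LAIR-1. The lowest library with anti-LAIR-1 was above the highest with isotype. The log2 fold change was 0.42 ± 0.11 (adjusted p = 0.0271 in edgeR), or 1.34-fold, with differences of 0.47, 0.62 and 0.22 in mice 1, 2 and 3. With the mouse as a block the adjusted p was 0.0142 in edgeR, while it was 0.121 in DESeq2 with the same block. The call was lost when 1 of 4 libraries was left out, with an adjusted p of 0.101 without CD3 isotype of mouse 1, 0.130 without that of mouse 2, 0.105 without CD3 anti-LAIR-1 of mouse 2 and 0.0734 without that of mouse 3 (edgeR). The log2 fold change stayed between 0.35 and 0.56 in all 6 of these fits.

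Psmb10 was at 17.2, 10.6 and 14.8 CPM with isotype and 20.9, 20.8 and 18.2 CPM with anti-LAIR-1 (log2 fold change 0.50 ± 0.18, adjusted p = 0.131 in edgeR). Psmb9 was at 12.7, 12.5 and 15.8 CPM and 18.5, 17.4 and 16.7 CPM (0.34 ± 0.17, adjusted p = 0.289). Neither passed, although the groups did not overlap and all 3 mice had the higher value with anti-LAIR-1. The difference was largest in mouse 2 for Psmb10 (0.26, 0.93 and 0.28 in mice 1, 2 and 3) and smallest in mouse 3 for Psmb9 (0.51, 0.45 and 0.07). The summed level of the 3 catalytic genes was 80.1 to 105 CPM with isotype and 119.6 to 127 CPM with anti-LAIR-1, against 231 to 239.9 CPM in unstimulated isotype libraries. In stimulated cells, anti-LAIR-1 changed the log2 ratio of Psmb8 to Psmb5 by 0.48 (0.52, 0.49 and 0.42 in the 3 mice), that of Psmb9 to Psmb6 by 0.45 (0.62, 0.67 and 0.05) and that of Psmb10 to Psmb7 by 0.52 (0.21, 1.22 and 0.12). Summed CD8+ T cell markers were also higher with anti-LAIR-1, at 3026 to 3313 CPM against 2514 to 2709.6 CPM, and their part was not tested. Summed B cell markers were at 1.08 to 3.18 CPM and myeloid markers at 34.5 to 44.9 CPM with anti-LAIR-1.

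**Figure D4:**
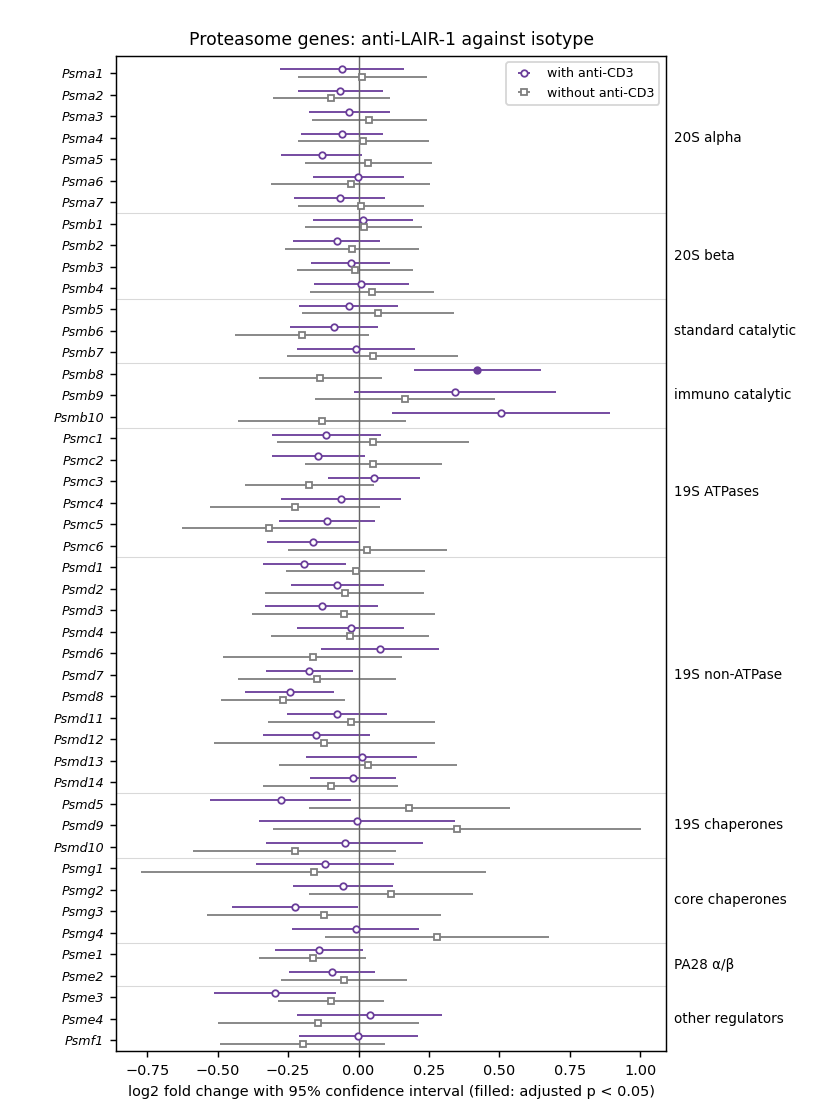
Log2 fold change (x axis) of 46 proteasome genes (rows, by role) with anti-LAIR-1 against isotype, in cells with anti-CD3 (circles) or without (squares), n = 3 libraries per group. Bars are 95% confidence intervals. The filled symbol, with an adjusted p under 0.05, is Psmb8 with anti-CD3 (0.42).

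The standard catalytic subunits did not pass the test. Psmb5, Psmb6 and Psmb7 had log2 fold changes of -0.04 (95% interval -0.21 to 0.14), -0.09 (-0.24 to 0.07) and -0.01 (-0.22 to 0.20), so that a change of 1 on the log2 scale, as anti-CD3 gave, lay outside the intervals. The 7 alpha subunits were all below 0, between -0.13 and -0.00, and none passed. Of the PA28 pair, Psme1 was at -0.14 ± 0.07 and Psme2 at -0.09 ± 0.07, which did not pass (adjusted p = 0.313 and 0.541 in edgeR). Psme1 and Psme2 thus did not share the direction of Psmb8, Psmb9 and Psmb10.

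Psme3 was at 1001, 1392 and 1219.8 CPM with isotype and 996, 1109 and 854 CPM with anti-LAIR-1 (log2 fold change -0.30 ± 0.10, adjusted p = 0.111 in edgeR). The groups overlapped, since mouse 2 with anti-LAIR-1 lay above mouse 1 with isotype. Psme3 of mouse 1 was nearly equal in both, and the differences in the 3 mice were -0.02, -0.34 and -0.53. With the mouse as a block it passed (adjusted p = 0.0397 in edgeR), and without CD3 isotype of mouse 1 it did so too (adjusted p = 0.0231), whereas DESeq2 gave an adjusted p of 0.439. Psmd8, named after its value was seen, was at 242, 223 and 259 CPM and 208, 199 and 207 CPM (-0.24 ± 0.07, adjusted p = 0.0639 in edgeR). The chaperones Psmg1 to Psmg4 were between -0.22 and -0.01 and none passed. Psme4 was at 0.04 ± 0.12 and Psmf1 at -0.00 ± 0.10.

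In unstimulated cells, 0 of 46 members passed with anti-LAIR-1 in edgeR, as did 0 of all 8770 genes tested (0%). At an unadjusted p under 0.05 there were 2 members, both lower (Psmc5 and Psmd8, named after their values were seen, the latter at 141, 125 and 131 CPM with isotype and 114, 104 and 113 CPM with anti-LAIR-1), and DESeq2 called 0. The log2 fold changes of the immunoproteasome set ranged from -0.16 to 0.16. Psmb8 had a log2 fold change of -0.14 (95% interval -0.35 to 0.08), Psmb9 of 0.16 (-0.16 to 0.48) and Psmb10 of -0.13 (-0.43 to 0.17). The level of Psmb9 was 31.1, 31.0 and 31.8 CPM with isotype and 35.2, 34.5 and 35.6 CPM with anti-LAIR-1, and these did not overlap, although the test over all genes was not passed. Psmb9 was the 1 member of 48 in which every library with anti-LAIR-1 lay above every one with isotype, as in 4.80% of all genes tested. In 7 members every one lay below, as in 4.86%. The intervals of the log2 fold changes of Psmb8, Psmb9 and Psmb10 all included 0. In these unstimulated cells, anti-LAIR-1 changed the log2 ratio of Psmb9 to Psmb6 by 0.36 (0.41, 0.31 and 0.36 in mice 1, 2 and 3). The ratio of Psmb8 to Psmb5 changed by -0.21 (-0.33, -0.17 and -0.13), and in both pairs the groups did not overlap. That of Psmb10 to Psmb7 changed by -0.18 (-0.46, -0.16 and 0.07), with overlap.

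The interaction tests whether the effect of anti-CD3 depends on anti-LAIR-1. Of the 47 members, 0 passed in edgeR, where 2.07% of 9223 genes did (1.82% with a higher and 0.249% with a lower value). At an unadjusted p under 0.05 there were 3 (Psmb8, Psmb10 and Psmd5, the last named after its value was seen), and DESeq2 called 1, Psmb8. For Psmb8 the interaction was 0.56 ± 0.16 on the log2 scale (95% interval 0.24 to 0.88, adjusted p = 0.059 in edgeR), which is the difference between its fall with isotype and its fall with anti-LAIR-1. With the mouse as a block it passed (adjusted p = 0.0408 in edgeR), and so it did in DESeq2 without (adjusted p = 0.0342) and with the block (0.0280). The 3 mice gave 0.85, 0.67 and 0.14. Of the 12 fits with 1 library left out, it passed in only 1 (0.71, adjusted p = 0.0148 in edgeR). That fit lacked CD3 isotype of mouse 3, the library with the highest Psmb8 of its group. The adjusted p ranged up to 0.189 in these 12 fits (edgeR), and the interaction was 0.48 to 0.71. For Psmb10 it was 0.64 ± 0.23 (adjusted p = 0.177) and for Psmb9 0.18 ± 0.22 (adjusted p = 0.816, edgeR). For Psme3 it was -0.19 ± 0.14 (adjusted p = 0.663). Over the members the median was -0.02, against 0.04 over all genes.

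Proteins that work with the proteasome but have no Psm symbol were followed as a list of 30 symbols, of which 26 were in the table and 24 were tested. Of the absent symbols, Sem1, Ecpas and Ufd1 are newer names of Shfm1, AI314180 and Ufd1l, which were in the table. Paaf1 had no row under any listed name. With isotype, anti-CD3 raised 15 (35.3% of all genes tested rose) and lowered 2 (36.1% fell), with a median log2 fold change of 0.59, against -0.03 over all genes. Pomp, the maturation factor that the assembling core needs, was at 109.5, 100.4 and 96.0 CPM without and 343, 335 and 328 CPM with anti-CD3 (1.68 ± 0.10, adjusted p = 4.17e-13 in edgeR). Adrm1, a ubiquitin receptor of the 19S particle, rose by 1.25 ± 0.13 and Uchl5, the deubiquitinase bound to it, by 1.63 ± 0.14. Rad23b, which shuttles ubiquitinated proteins, rose by 1.76 ± 0.12 and Txnl1, a thioredoxin on the particle, by 1.73 ± 0.12. Nfe2l1, the transcription factor known to induce proteasome genes, rose by 0.60 ± 0.16 (adjusted p = 0.00257 in edgeR). The genes that fell were Nfe2l2, the related stress factor (-0.99 ± 0.13), and Ngly1, which processes Nfe2l1 (-1.35 ± 0.30). Under anti-LAIR-1, 14 rose and 2 fell, against 36.4% and 36.3% of all genes, with a median of 0.61. In stimulated cells anti-LAIR-1 raised 0 of the 24 (3.9% of all genes rose) and lowered 1 (1.86% fell), Uchl5, from 97.7, 92.2 and 93.1 CPM to 76.1, 78.6 and 71.4 CPM (-0.33 ± 0.09, adjusted p = 0.0349 in edgeR). The interaction passed for 0 of them, with 1 at an unadjusted p under 0.05, and DESeq2 gave an adjusted p of 0.461 for that gene, Rad23b.

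The genes that act upstream of the immunoproteasome or beside it in peptide supply were a list of 18, all tested with anti-CD3. With isotype, 12 fell and 5 rose, against 36.1% and 35.3% of all genes tested, with a median log2 fold change of -0.78. Under anti-LAIR-1, 11 fell and 5 rose, against 36.3% and 36.4%, with a median of -0.53. The peptide transporter genes that flank Psmb8 fell with it, Tap1 from 156 ± 11.2 to 72.0 ± 5.49 CPM (SD, n = 3 each, -1.14 ± 0.11) and Tap2 from 44.1 ± 7.61 to 17.8 ± 1.97 CPM (-1.34 ± 0.18). The interferon-γ receptor chains fell most, with log2 fold changes of -3.78 ± 0.14 for Ifngr1 and -3.31 ± 0.19 for Ifngr2, and the kinase Jak1 that they use changed by -2.11 ± 0.09. Irf1, a factor that binds immunoproteasome promoters, changed by -0.34 ± 0.13 (adjusted p = 0.0248 in edgeR, 0.112 in DESeq2), and Nlrc5, the coactivator of MHC class I genes, by -0.18 ± 0.17 (adjusted p = 0.355). Among the 5 genes that rose was Ifng, the cytokine itself, which had no counts in the 3 unstimulated isotype libraries and was at 38.4 ± 0.275 CPM with anti-CD3. Irf8 rose too, from 2.29 ± 0.843 to 370 ± 57.3 CPM. So did the kinase Jak2, from 44.8 ± 5.18 to 107 ± 8.57 CPM, and Erap1, from 21.4 ± 4.86 to 57.5 ± 4.84 CPM (SD, n = 3 each).

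In stimulated cells, 4 of these 18 genes rose (3.9% of all genes did) and 2 fell (1.86% did) with anti-LAIR-1. Among those that rose were Ifngr1 (0.67 ± 0.17, adjusted p = 0.0236), Tap2 (0.62 ± 0.15, 0.0254) and Jak1 (0.30 ± 0.07, 0.0215, all in edgeR). Those that fell were Ifng, from 38.4 ± 0.275 to 13.9 ± 3.72 CPM (-1.44 ± 0.17, adjusted p = 4.09e-05), and Irf8 (-0.54 ± 0.12, 0.0137). Tap1 was at 65.9, 76.5 and 73.7 CPM with isotype and 84.0, 87.7 and 91.5 CPM with anti-LAIR-1 (0.27 ± 0.09, adjusted p = 0.101) and Irf1 at 89.0 ± 14.8 and 115 ± 7.98 CPM (0.34 ± 0.11, 0.0654, and with the mouse as a block 0.0311, all in edgeR). Psmb8, Ifngr1, Tap2 and Jak1 were thus higher, and Ifng and Irf8 lower, in the same group. How these changes relate was not tested.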

How the data were processed

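Libraries were prepared by an adapted CEL-seq protocol, which counts the 3′ ends of transcripts, and sequenced on a NextSeq 500. The authors aligned read 2 to the mm10 mouse transcriptome with BWA MEM (version not given in the sources used here), discarded reads with several alignments, and deposited a table of counts per gene. Whether molecular identifiers were collapsed, and whether strand was used, is not given in the sources used here. Libraries held 1781218 to 7725545 counts. The detection limits given cover counting error only. All columns were used (0 columns of samples left out).

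Counts as deposited were tested in R 4.3.3 with edgeR 4.0.16 (filterByExpr, TMM, quasi-likelihood test, Benjamini-Hochberg adjustment over all genes tested, threshold 0.05). Each comparison was fitted on its 2 groups of 3 libraries, and the interaction on all 12. The study used DESeq2. Alternatives were the Wald test of DESeq2 1.42.0 without and with the mouse as a block, its size factors in edgeR, upper quartile scaling, no filter, at least 10 counts in every library, the mouse as a block in edgeR, 1 fit of all 12 libraries, thinning to the smallest total, and leaving out each library. Standard errors and 95% intervals are those of the quasi-likelihood fit. Log2 differences within a mouse use CPM with a prior count of 2. The scripts were tested on counts simulated with a 2-fold change in 200 genes. Groups and mouse numbers come from the labels. Since the same number is the same mouse, the numbers pair the libraries. Deviations from the group means correlated by 0.0489 on average within a mouse and by -0.0245 between mice.

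Values were given for Psmb5 to Psmb10, Psme1 to Psme4, Psmf1, Psmg1 to Psmg4, and up to 6 members with the highest and 6 with the lowest log2 fold change among those that passed. From the lists of partners and of interferon genes, those named were up to 6 highest and 6 lowest that passed, and Nfe2l1, Nfe2l2, Pomp, Adrm1, Ifng, Irf1, Nlrc5 and Tap1, and the values of 1 gene of the second list are not reported here. The members and lists were chosen with earlier results of these data known. Positions are from GENCODE M21 (GRCm38), and promoter sequences from RefSeq (GRCm38.p6).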

Additional observations from a re-analysis of the deposited data

Results flagged for a closer look

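For 2 members, anti-LAIR-1 moved all 3 mice one way with anti-CD3 and all 3 the other way without it. In Psmb10 the differences on the log2 scale were 0.26, 0.93 and 0.28 in mice 1, 2 and 3 with anti-CD3 and -0.08, -0.01 and -0.24 without. Its interaction was 0.64 ± 0.23, and edgeR gave it an adjusted p of 0.177, or of 0.18 with the mouse as a block, so that this difference did not pass the test over all genes. In Psmc6, an ATPase of the 19S particle named after its values were seen, the differences were -0.09, -0.15 and -0.25 with anti-CD3 and 0.01, 0.08 and 0.06 without. Its interaction was -0.19 ± 0.14, which edgeR gave an adjusted p of 0.674, and it did not pass either. Of the 46 members tested with and without anti-CD3, 2 (4.35%) had such opposite signs, against 4.75% of all 8308 genes tested in both, so that their share was near that of all genes.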

How the results depend on the processing

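The calls with anti-CD3 held for Psmb8, Psmb9, Psmb10 and all standard catalytic subunits under each alternative. With each library left out in turn, 40 to 41 members rose with isotype and 41 to 42 with anti-LAIR-1, and 3 fell in both. For anti-LAIR-1 in stimulated cells, DESeq2 with the mouse as a replicate block called 0 members higher, and 1 member, Psme3, was called lower without the filter on low counts and with the replicate block in edgeR (pairing by mouse). Leaving out a library gave 0 to 1 higher and 0 to 1 lower. For the interaction, 1 member, Psmb8, was called higher without the filter, with the replicate block in edgeR, and in DESeq2 without and with the block, and 0 to 1 when a library was left out. The replicate block in edgeR changed no other call of a member. Adding 2 CPM to both levels moved the ratio of Psmb8 to Psmb5 under anti-LAIR-1 from -2.09 to -2.04 and that of Psmb9 to Psmb6 with isotype from -2.46 to -2.33 on the log2 scale. Values of members changed sign as follows. Upper quartile scaling gave -0.028 for Psme4 with anti-CD3 and isotype and 0.00385 for Psmf1 with anti-LAIR-1 in stimulated cells, for which the strict filter (at least 10 counts in every library) gave 0.0066 and the fit of all 12 libraries 0.0055. In stimulated cells the replicate block gave 0.0023 for Psmg4 with anti-LAIR-1. Thinning all libraries to the smallest total gave -0.070 for Psmd10 with anti-CD3 and anti-LAIR-1, where it had passed at 0.37, and with anti-LAIR-1 in stimulated cells 0.056 for Psmf1, 0.016 for Psmg4, 0.079 for Psmb7 and 0.046 for Psmg1. In the interaction, no filter gave -0.0012 for Psme1, and thinning 0.055 for Psmb7, 0.090 for Psme2 and 0.043 for Psmg3. With a library left out, values in stimulated cells ranged from -0.118 to 0.0175 for Psmb5, -0.136 to 0.0978 for Psmb7, -0.0198 to 0.0711 for Psme4, -0.0709 to 0.0810 for Psmf1, -0.136 to 0.0260 for Psmg2 and -0.150 to 0.111 for Psmg4, and in the interaction from -0.206 to 0.0670 for Psmb7, -0.0313 to 0.0796 for Psme1, -0.105 to 0.0335 for Psme2 and -0.156 to 0.358 for Psmg1. The cause of these changes was not tested. Over all genes, anti-LAIR-1 in stimulated cells gave 343 higher and 164 lower, against 471 and 261 without the filter, 227 and 94 after thinning, 140 and 72 in DESeq2 with the block and 391 and 99 in the fit of all 12 libraries. The interaction gave 168 higher and 23 lower, against 221 and 54 without the filter and 95 and 16 after thinning. Without the filter, anti-LAIR-1 in unstimulated cells gave 3 higher and 2 lower. Depth limits Psmb11, Psmc3ip and the partners that were not tested.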
